A study of Mus musculus with 12 samples.

Results

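Testes that lacked Sohlh1 or Sohlh2 were compared, as a single group, with wild-type testes. The group held all 8 knockout arrays of the series, of which 4 were labelled Sohlh1 knockout (Sohlh1-/-) and 4 Sohlh2 knockout (Sohlh2-/-). The other side held the 4 wild-type arrays, so all 12 arrays of the series entered. Because the grouping ignores which of the knockout labels an array carries, an exchange of labels between the knockouts could not alter it. Of 45101 probe sets on the array, 34945 were no controls and had exactly 1 gene symbol, which gave 18193 genes. The 24906 probe sets bright enough to be tested covered 13702 genes.

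All mice were on a C57BL/6, 129S5, SvEvBrd hybrid background and were taken at postnatal day 7. Both knockouts were homozygous and wild-type animals served as controls. Each array carried RNA pooled from 3 whole testes, 1 per animal, so p-values measure the spread between pools. The knockout pools were of both genotypes, so that spread also holds differences between the knockouts. The arrays were Affymetrix whole-genome mouse arrays, on which a transcript is read by a set of short oligonucleotide probes and its level is given as a signal intensity. The testis at this age holds spermatogonia, their Sertoli cells and the cells between the tubules. In such whole-tissue RNA, fewer cells of a type and less RNA per cell cannot be told apart.

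The proteins of Sohlh1 and Sohlh2 are transcription factors of the basic helix-loop-helix class, found in germ cells. Such proteins bind, as pairs, a short DNA motif called the E-box. Both genes are known to be needed for spermatogonia to pass from the undifferentiated state, in which stem cells are kept by the growth factor GDNF, to the differentiating state, which is marked by the receptor Kit and is driven by retinoic acid. They are also known for their part in early oocytes.

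The targeted genes were read first. Sohlh1 read 1125, 1138, 1200 and 1233 on the wild-type arrays and 50.2 to 595, with a median of 296, on the 8 knockout arrays. Its groups did not overlap, and it fell in the pool (log2 fold change -2.39, SE 0.58, limma adjusted p = 0.0284). Leaving out any 1 of the 4 wild-type arrays ended that call at nearly the same size (-2.37 to -2.41, adjusted p = 0.0559 to 0.0927). Sohlh2 read 885, 1104, 1012 and 1200.3 on the wild-type arrays and 73.2 to 1847 on the knockout arrays, which lay on both sides of the wild type. It did not pass in the pool (log2 fold change -1.26, 95% interval -3.10 to 0.59, adjusted p = 0.464). Each of the 8 knockout arrays was lowest for 1 of the targeted genes: 4 arrays read 50.2 to 126 for Sohlh1 and the other 4 read 73.2 to 157 for Sohlh2. Those other 4 read 465 to 595 for Sohlh1, which is also below every wild-type array. The label named the other gene on 2 of the 8, Sohlh1 knockout 5 and Sohlh2 knockout 1. The labels do not say whether either probe set lies in the deleted part of its gene, so a low signal checks a label only if it does.

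**Figure D1:**
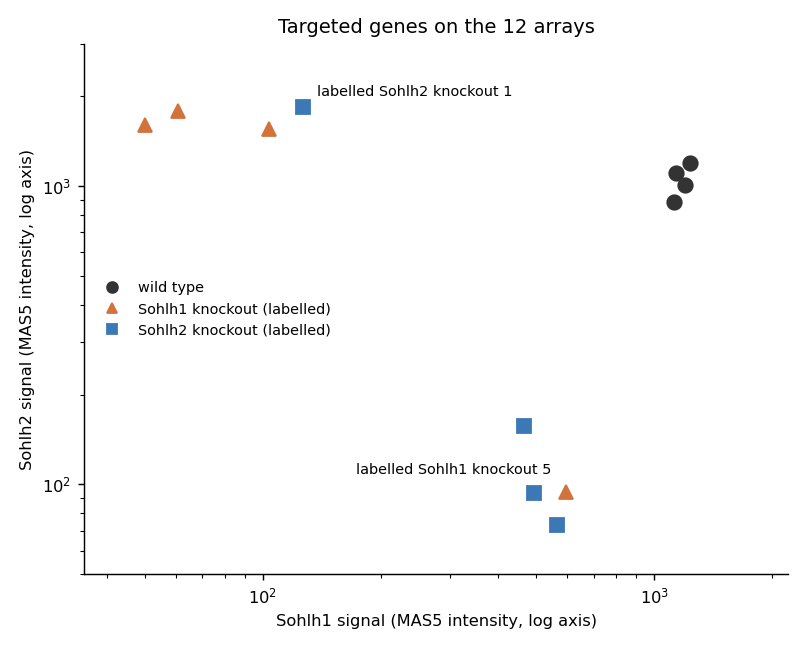
Signal of Sohlh1 (horizontal, log axis) against Sohlh2 (vertical, log axis) on each of the 12 arrays, with 1 point per array and marks by label. The wild-type arrays lie together at the upper right, 4 knockout arrays lie at low Sohlh1 and 4 at low Sohlh2, and 2 of these 8 carry the label of the other gene.

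The arrays labelled Sohlh1 knockout 2 and Sohlh2 knockout 1 stood apart in RNA quality. Their 3' to 5' ratios of the Gapdh control probe sets, which rise as RNA degrades, were 1.17 and 1.63, against 0.744 to 0.818 on the other 10 arrays. The mean log2 ratio did not differ between knockout and wild type beyond the spread (difference 0.21, exact two-sided permutation p = 0.37, where the smallest possible is 0.00202). Array medians were 76.7 to 90.8 and did not pass either (exact permutation p = 0.248).

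In the knockout pool several genes of differentiating spermatogonia and of dividing cells fell, and several pluripotency and MAGE genes rose. The gene lists used here and below were chosen with earlier results of these data known, so their counts are descriptions. At an adjusted p under 0.05, 430 of 13702 genes fell (3.14%) and 323 rose (2.36%), and these are the genes called changed below. Among probe sets 1092 of 24906 changed (4.38%). On the log2 scale used, the largest changes were falls. At least 2-fold, 57 genes fell and 50 rose, and at least 4-fold, 9 fell and 0 rose. That scale adds an offset to every signal, which draws the changes of dim genes towards 0. With no offset Aox4, Arhgap9 and Tbx4, all dim in wild type, stood at 2.10, 2.01 and 2.86, which is over 4-fold. The count of 0 thus depends on the offset. Lhx8 and Dlx1, which had the largest falls, stood at -3.77 and -4.25 with no offset. In wild type, genes that fell were the brighter ones, with a median signal of 1256 against 572 for those that rose and 580.1 for all genes tested. Part of this follows from the call, since a gene that fell is higher in wild type than in the knockouts.

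The median log2 fold change was -0.51 for genes that fell, 0.52 for genes that rose and 0.03 over all genes tested. In 491 genes (3.58%) all 8 knockout arrays lay below all 4 wild-type arrays, and in 417 (3.04%) all lay above. Of the 753 changed genes 603 had groups that did not overlap in this way. The SD of log2 signal of changed genes had a median of 0.16 over the 8 knockout arrays and 0.15 over the 4 wild-type arrays. The count of changed genes rested on the wild-type arrays: leaving out number 4, 5 or 6 of them gave 402, 391 or 363. With both arrays of high 3' to 5' ratio left out it was 1132, of which 738 were among the 753. With both arrays whose targeted genes disagreed with the label left out it was 743, of which 627 were among the 753. With each array centred on its median it was 604, of which 316 rose and 288 fell, so the excess of falls turned.

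**Figure D2:**
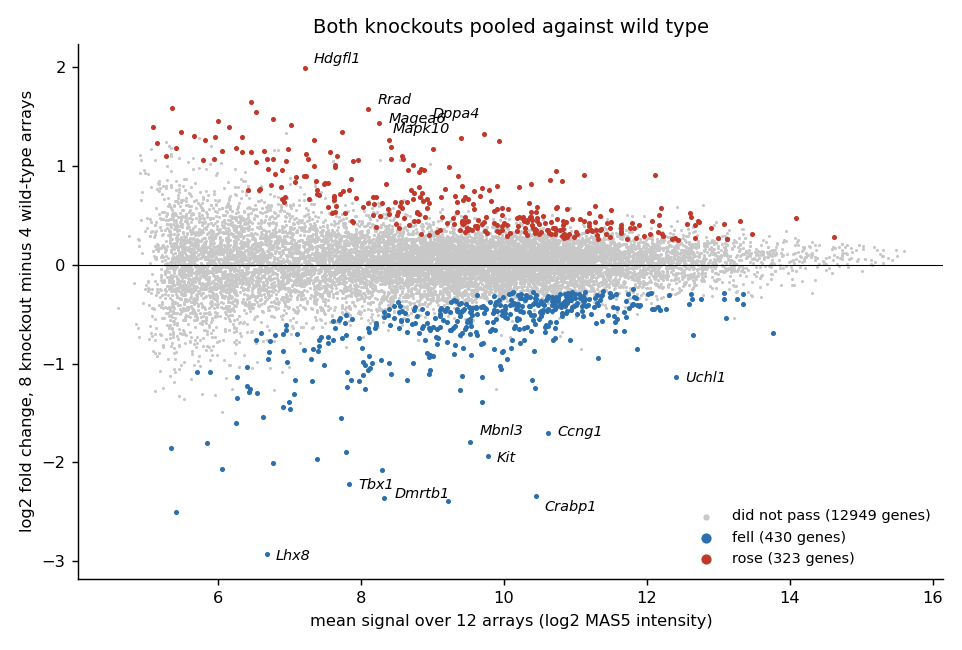
Log2 fold change of the 8 knockout against the 4 wild-type arrays (vertical) over the mean log2 signal of all 12 arrays (horizontal), with 1 point for each of 13702 genes. Blue points mark the 430 genes that fell and red points the 323 that rose; the largest falls reach -2.93 and the largest rises 1.99.

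Among the 12 largest falls were 7 genes of transcription factors besides Sohlh1 itself. Lhx8, a LIM homeobox factor best known from oocytes, read 217, 272, 279.5 and 272 on the wild-type arrays and 1.39 to 53.7, with a median of 25.3, on the knockout arrays. Every knockout array lay far below the lowest wild-type array (log2 fold change -2.93, SE 0.32, adjusted p = 6.60e-05). Dlx1, a homeobox factor, read 77.4, 97.2, 143 and 122 in wild type and 1.82 to 29.1, with a median of 2.24, in the knockouts (-2.51, SE 0.35, adjusted p = 0.000714). On the knockout arrays Dlx1, and Lhx8 on most of them, lay below the filter value of 48.6, so the size of these falls depends on the offset. All fold changes are of log2(signal + 14.2), which draws those of dim genes towards 0. With the offset at the median or with no offset Lhx8 stood at -1.69 and -3.77 and Dlx1 at -1.07 and -4.25, and both fell under either.

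Dmrtb1, a DM-domain factor of spermatogonia at the entry to meiosis, read 659, 671, 737 and 738 in wild type and 71.3 to 181 in the knockouts, with a median of 131. It fell by 2.36 on the log2 scale (SE 0.21, adjusted p = 1.04e-05). Tbx1, a T-box factor, read 382, 488, 561 and 556 in wild type, and its 8 knockout values lay close together between 80.1 and 113 (-2.22, SE 0.14, adjusted p = 3.05e-07). Esx1, an X-linked homeobox factor of the testis, spread widely in wild type, from 403 to 939, and lay at 111 to 224 in the knockouts (-2.08, SE 0.21, adjusted p = 4.08e-05). Foxn4, a forkhead factor, fell from 144 ± 13.0 (SD, n = 4) to 28.0 ± 20.2 (SD, n = 8). Runx3 fell from 229 ± 32.3 to 50 ± 24.1 on its brighter probe set (-2.01), but its other probe set had 0.46 without passing, and with the mean of its probe sets the call ended (-0.77, adjusted p = 0.177).

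The other 4 of the 12 encode a binding protein, a receptor, a transcription cofactor and an enzyme. Crabp1, which binds retinoic acid in the cytoplasm, read 2573, 2853, 3304 and 3315 in wild type and 389 to 695, with a median of 603, in the knockouts. Its groups lay far apart, with the knockout mean at 19.4% of wild type (-2.35, SE 0.13, adjusted p = 1.00e-07). Kit, the stem cell factor receptor of differentiating spermatogonia, read 1591, 1598, 1953 and 1815 in wild type and 329.5 to 542, with a median of 469, in the knockouts. The knockout mean of Kit was 25.7% of wild type (-1.94, SE 0.13, adjusted p = 5.42e-07), and its dimmer probe set fell as well (-1.67). Lmo1, a LIM-only cofactor, fell from 445 ± 101 to 110.0 ± 27.4, and Slc27a2, an acyl-CoA synthetase, from 346 ± 78.7 to 77.8 ± 16.9.

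Since the missing factors are of the class that binds E-boxes, the windows before the start sites of the first 4 of these falls and of Kit are shown, with each E-box (CANNTG, which reads the same on both strands) in capitals. They are the 250 bases before the start as listed by RefSeq on build GRCm38.p6, read along the gene's strand. The windows are chr3:154330561-154330810 on the minus strand for Lhx8, chr2:71529195-71529444 on the plus strand for Dlx1, chr2:25847249-25847498 on the minus strand for Sohlh1, chr4:107683590-107683839 on the minus strand for Dmrtb1 and chr5:75574737-75574986 on the plus strand for Kit.
Lhx8: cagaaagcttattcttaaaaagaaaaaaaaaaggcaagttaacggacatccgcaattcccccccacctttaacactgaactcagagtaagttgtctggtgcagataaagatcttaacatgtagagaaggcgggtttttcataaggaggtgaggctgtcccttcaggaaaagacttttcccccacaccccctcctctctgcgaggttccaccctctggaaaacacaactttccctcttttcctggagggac
Dlx1: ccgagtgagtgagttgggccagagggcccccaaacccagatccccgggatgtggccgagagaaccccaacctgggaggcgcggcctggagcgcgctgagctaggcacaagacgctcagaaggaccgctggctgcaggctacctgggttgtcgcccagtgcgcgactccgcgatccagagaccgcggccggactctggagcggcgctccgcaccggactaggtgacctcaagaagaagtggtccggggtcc
Sohlh1: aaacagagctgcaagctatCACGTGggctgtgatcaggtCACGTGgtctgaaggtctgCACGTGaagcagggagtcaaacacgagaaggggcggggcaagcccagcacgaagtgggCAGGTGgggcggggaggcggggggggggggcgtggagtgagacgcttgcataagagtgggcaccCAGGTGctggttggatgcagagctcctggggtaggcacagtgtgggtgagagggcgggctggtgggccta
Dmrtb1: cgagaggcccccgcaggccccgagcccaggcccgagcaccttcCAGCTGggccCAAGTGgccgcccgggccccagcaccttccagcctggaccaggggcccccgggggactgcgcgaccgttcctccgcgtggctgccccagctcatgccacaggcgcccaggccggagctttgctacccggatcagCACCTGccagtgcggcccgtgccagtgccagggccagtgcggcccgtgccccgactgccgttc
Kit: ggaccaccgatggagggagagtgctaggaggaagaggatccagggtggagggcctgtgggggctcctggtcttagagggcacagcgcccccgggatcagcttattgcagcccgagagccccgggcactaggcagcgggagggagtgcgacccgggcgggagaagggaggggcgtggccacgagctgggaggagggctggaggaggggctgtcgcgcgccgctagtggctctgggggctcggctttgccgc

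The window of Sohlh1 held 5 E-boxes and that of Dmrtb1 held 3, while those of Lhx8, Dlx1 and Kit held 0. Over all tested genes with a listed window, 57.6% of 11043 windows held at least 1. The share was 55.9% of 356 windows among genes that fell and 62.3% of 260 among genes that rose, and among the 12 largest falls it was 6 of 12. Of the 12 largest rises 6 had a listed window, and all 6 windows held an E-box. Genes that rose at least 2-fold had an E-box in 31 of 37 windows (83.8%), with a median GC content of 53.6% against 59.6% over all windows; genes that fell at least 2-fold had one in 24 of 46 (52.2%). The form CACGTG, which makes up 3 of the 5 in the window of Sohlh1, stood in 10.4% of windows of genes that fell, 10.4% of those that rose and 8.49% of all. A match is a description of these letters and not a site of binding.

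The 12 largest rises ranged from 1.27 to 1.99, against -1.90 to -2.93 for the 12 largest falls. Hdgfl1, a testis gene related to hepatoma-derived growth factor, read 15.6, 97.8, 46.9 and 23.6 in wild type and 133 to 281, with a median of 191, in the knockouts (1.99, SE 0.29, adjusted p = 0.000962). Of its wild-type values only 97.8 lay above the filter value of 48.6, so Hdgfl1 was tested only through the knockouts. Its size ran from 1.16 to 2.43 over the alternative settings and is not settled. Rrad, a small GTPase, read 85.4, 97.4, 127 and 134 in wild type and 306 to 461, with a median of 345, in the knockouts (1.58, SE 0.14, adjusted p = 1.03e-05). Dppa4, a chromatin protein of pluripotent cells, had the smallest standard error of them. It read 397, 419, 480.2 and 359 in wild type and 996 to 1114, with a median of 1062, in the knockouts (1.33, SE 0.08, adjusted p = 2.88e-07). Its partner Dppa2 rose from 41.5 ± 37.6 to 118 ± 23.3 (1.55, adjusted p = 0.0215), with wild-type values of 4.68 to 75.4 on either side of the filter value of 48.6. That call of Dppa2 ended without wild type 4 or 6 (adjusted p = 0.0784 and 0.100).

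Magea6, of the MAGE family on the X chromosome, read 114.5 to 179 in wild type and 294 to 475 in the knockouts, with no overlap (1.44, SE 0.14, adjusted p = 3.19e-05). Mapk10, a stress-activated kinase, rose from 325 ± 56.3 to 848 ± 306 and had the widest knockout range in signal of the 12, from 509 to 1430.2 (1.29, adjusted p = 0.00438). Mmp9, a secreted matrix protease, rose from 56.9 ± 29.8 to 166 ± 54.8 (1.41, adjusted p = 0.0121). Ldhc, the lactate dehydrogenase of germ cells, rose from 35.6 ± 20.2 to 103 ± 35.6 (1.30, adjusted p = 0.0150), and without wild type 4 it did not pass (1.00, adjusted p = 0.0584). Aox4, Arhgap9, Mypn and Pax5 lay below the filter value on all 4 wild-type arrays and above it on all 8 knockout arrays, so they were tested only through the knockouts and the size of their rise is not settled. With the offset at the median they stood at 0.85, 0.67, 0.66 and 0.58, and with no offset at 2.10, 2.01, 1.94 and 1.73; all 4 rose under both. Ldhc, Dppa2 and Mmp9 lay above the filter value on only some of the wild-type arrays, so they too were tested only through the knockouts. Dlx1 and Ovol1 lay above it on the wild-type arrays only.

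**Figure D3:**
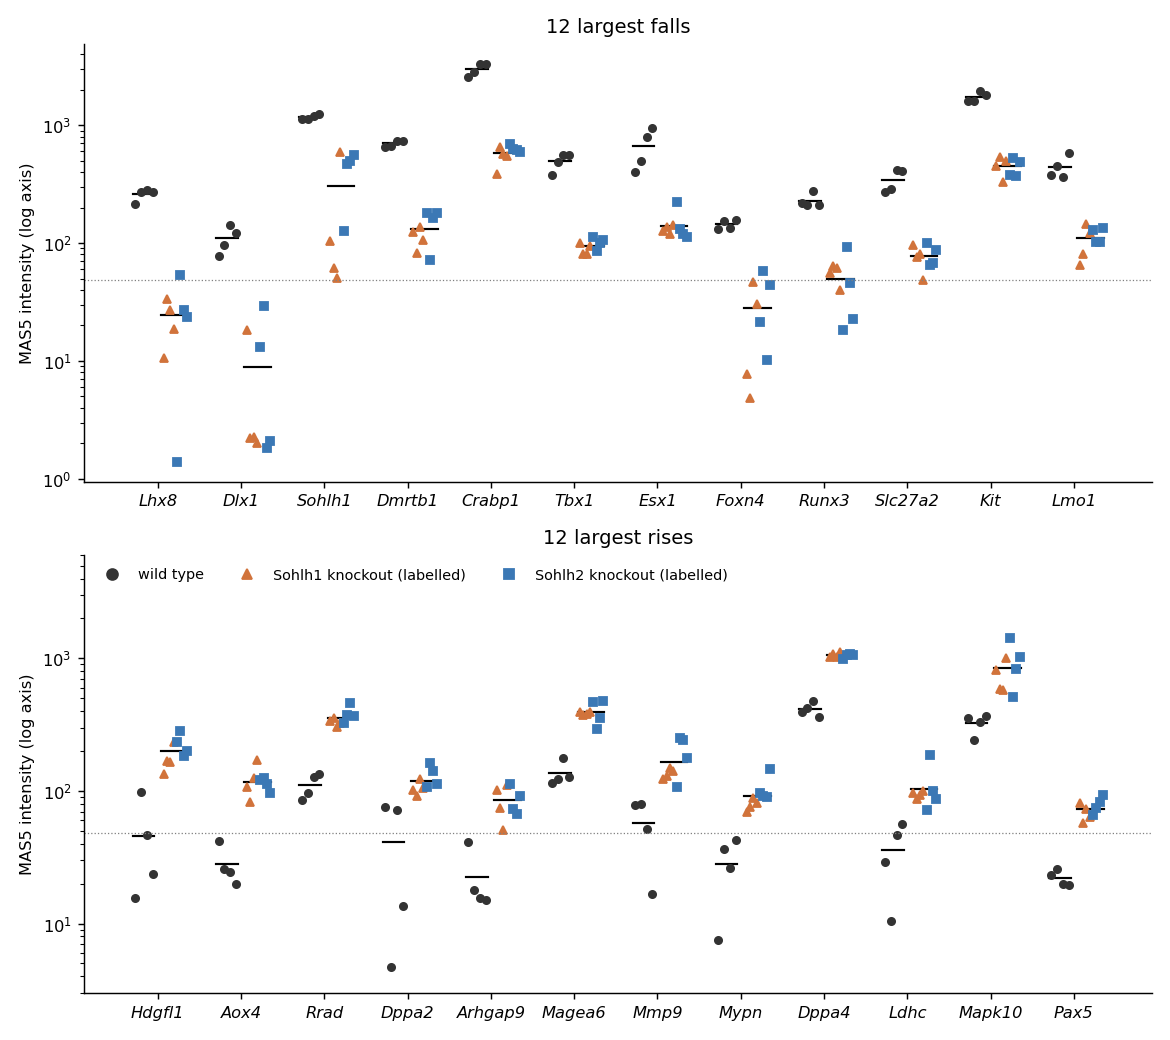
Signal intensity (log axis) of the 12 largest falls (top) and the 12 largest rises (bottom) on each array, with 1 point per array, black bars for the mean of the 4 wild-type and of the 8 knockout arrays, and a dotted line at the filter value of 48.6. For all 24 genes the wild-type and knockout points do not overlap, which was a condition for being shown.

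The values of these 24 genes by label are given side by side. They share the wild-type arrays, the genes were chosen for lying on the same side of wild type on all 8 knockout arrays, and the targeted genes go against the label on 2 arrays, so their likeness is no result. Lhx8 stood at -2.94 on the arrays labelled Sohlh1 knockout and at -2.93 on those labelled Sohlh2 knockout, relative to wild type on the log2 scale. Kit stood at -1.92 and -1.95, Dppa4 at 1.33 and 1.32, and Magea6 at 1.43 and 1.45. Foxn4 stood at -2.28 and -1.85, Mmp9 at 1.21 and 1.62, and Runx3 at -1.81 and -2.20. Sohlh1, which sets those 2 arrays against their labels, stood at -3.12 and -1.66 by label as given.

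**Figure D4:**
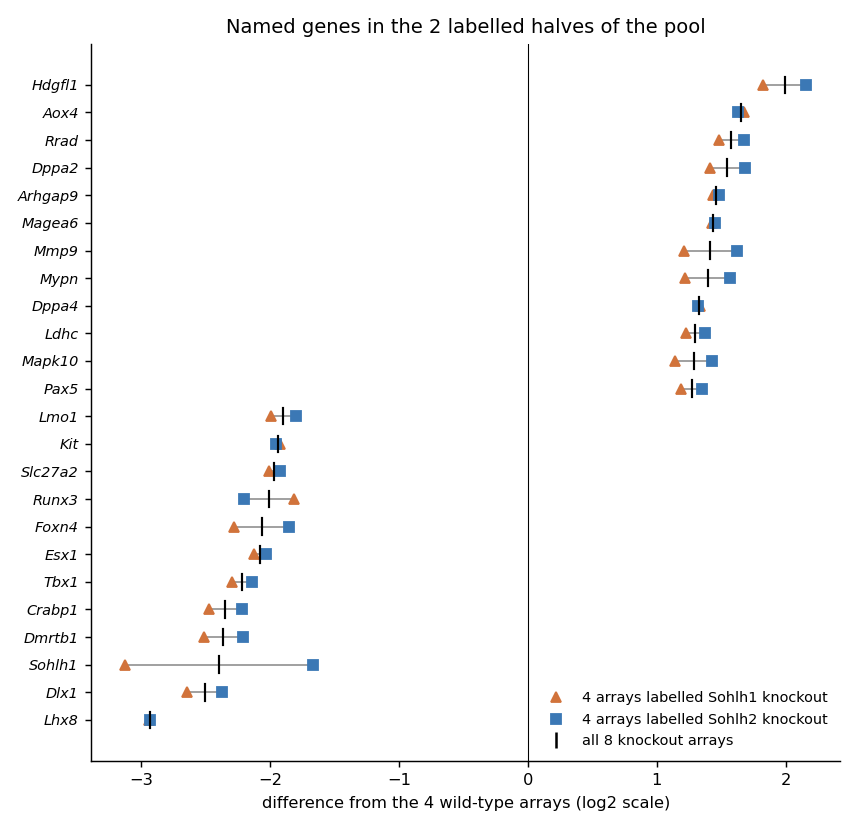
Difference from wild type on the log2 scale of the 12 largest falls and the 12 largest rises, for the 4 arrays labelled Sohlh1 knockout (triangles), the 4 labelled Sohlh2 knockout (squares) and all 8 (black ticks). The labels are used as given, and all marks of a gene lie on the same side of 0, which was a condition for being shown.

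Several genes of differentiating spermatogonia fell in the pool. Of 16 listed and tested, 7 fell and 0 rose, and the median change was -0.46 on the log2 scale, against 3.14% fallen and a median of 0.03 over all genes. They were Crabp1, Kit, Dmrtb1, Lmo1, Esx1, the de novo DNA methyltransferase Dnmt3b and the retinoic acid target Stra8. Dnmt3b fell from 2138 ± 157 to 957 ± 190 (-1.17, adjusted p = 9.52e-05). Stra8 stood at 4602 ± 823 and 3418 ± 423 and barely passed (-0.42, adjusted p = 0.0490); it did not pass in 16 of 29 alternatives. Sall4 (0.27) and Upp1 (0.30) did not pass and had positive values. Without probe sets that can match several transcripts only 3 of the list fell, and 1 rose. Crabp1, Esx1, Kit and Dnmt3b had no tested probe set left in that setting, so their falls were absent there and not lost.

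Genes of undifferentiated spermatogonia changed in both directions. Of 25 tested 3 rose and 3 fell, with a median of 0.10, against 2.36% risen and 3.14% fallen over all genes. Gfra1, the receptor subunit for GDNF, read 570.5 to 909 in the knockouts against 355 ± 47.7 in wild type (0.99, adjusted p = 0.000245). Id4, an inhibitor of basic helix-loop-helix factors found in stem cells, rose from 877 ± 130 to 1552 ± 172 (0.82, adjusted p = 0.000387), and the membrane protein Tspan8 rose by 0.58, though without probe sets that can match several transcripts it stood at 0.05 (adjusted p = 0.921) and it did not pass without wild type 6 (adjusted p = 0.0706). Sox3 fell from 1529 ± 193 to 731 ± 91.6 (-1.05, adjusted p = 4.85e-05), Neurog3, of progenitors, from 351 ± 33.2 to 159 ± 27.9 (-1.09, adjusted p = 0.000464) and Pou3f1 from 372 ± 54.5 to 203 ± 42.7 (-0.85). With the mean of its 3 probe sets Gfra1 did not pass (0.58, adjusted p = 0.233), and Ret, its partner, stood at 0.56 with a 95% interval of 0.00 to 1.12. With both arrays of high 3' to 5' ratio left out 8 of the list rose and 3 fell.

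Several pluripotency genes rose. Of 16 tested 6 rose and 1 fell, with a median of 0.32 and a background of 2.36% risen. Besides Dppa4 and Dppa2 these were Pou5f1, which encodes Oct4 (269.5 ± 27.9 to 642 ± 177, 1.17, adjusted p = 0.000888), Zfp42, which encodes Rex1 (104 ± 47.9 to 234 ± 38.8, 1.15, adjusted p = 0.00639), the Akt coactivator Tcl1 (0.73) and Fbxo15 (0.87). Dppa3, another gene of germ cells and early embryos, went the other way, from 150.1 ± 31.5 to 54.9 ± 18.6 (-1.29, adjusted p = 0.00850). Nanog, Tdgf1 and Prdm14 were too dim to be tested.

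Genes that germ cells use at any stage did not move as a block, with 2.36% risen and 3.14% fallen over all genes. Of 22 tested 3 rose and 3 fell, with a median of -0.11, and their summed signal was 57400 to 64290 on the wild-type arrays and 54900 to 63540 on the knockout arrays. Ddx4, the germ cell RNA helicase, stood at 4137 ± 297 and 4414 ± 302 (0.09, 95% interval from -0.06 to 0.24), and Dazl, an RNA-binding protein of germ cells, at 12281 ± 985 and 11689 ± 778 (-0.07, -0.22 to 0.08). Gpat2 rose by 0.95 and Stk31 by 0.53, while Boll, a relative of Dazl that acts in meiosis, fell from 421 ± 70.8 to 202 ± 68.3 (-1.07, adjusted p = 0.0182). Boll did not pass without wild type 4, 5 or 6, and then 0 genes of the list fell; without Sohlh2 knockout 3-1 only 1 fell.

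Meiosis genes split as well: 4 of 25 rose and 4 fell, with a median of 0.12, against 2.36% risen and 3.14% fallen over all genes. Mnd1, a recombination factor, rose from 211 ± 18.9 to 467 ± 27.2 (1.10, adjusted p = 7.98e-06) and the chromosome axis gene Hormad1 from 283 ± 49.1 to 484 ± 54.8 (0.75, adjusted p = 0.00195). Tex11, an X-linked gene of meiotic recombination, fell from 1572 ± 153 to 804 ± 93.1 (-0.96, adjusted p = 5.07e-05), and the synaptonemal complex gene Syce1 fell by 0.43. The smaller changes were less firm: without wild type 3 or 4 only 2 genes rose, and without wild type 5 or 6 only 1 fell. In the piRNA pathway, which silences transposons, 4 of 16 rose and 2 fell with a median of 0.03. Gtsf1 rose from 2780 ± 246 to 5273 ± 853 (0.91, adjusted p = 0.000289) and Asz1 from 1274 ± 37.0 to 1927 ± 140 (0.59, adjusted p = 0.000241), while Pld6 fell by 0.70. Without wild type 4, 5 or 6 the counts there were 2 risen and 1 fallen, without any 1 of Sohlh1 knockout 2, 3 and 4 and Sohlh2 knockout 3-1, 4 and 5 only 1 fell, and with the mean of its probe sets Asz1 did not pass (0.37, adjusted p = 0.141).

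Among oocyte genes 3 fell. Of 19 listed 10 were tested, of which these 3 fell and 0 rose, with a median of -0.47 and a background of 3.14% fallen; the other 7 did not pass. Uchl1, a ubiquitin hydrolase also made by spermatogonia, fell from 8582 ± 750 to 3902 ± 361 (-1.14, adjusted p = 1.29e-06), and Figla, the helix-loop-helix factor of primordial follicles, from 276 ± 52.3 to 131 ± 34.5 (-1.02, adjusted p = 0.00766). Nobox stood at 120.1 ± 32.4 and 40.1 ± 27.8 and did not pass (-1.49, 95% interval -2.38 to -0.60, adjusted p = 0.0576).

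Some genes best known from spermatids and some MAGE genes rose, against a background of 2.36% risen. Of 11 spermatid genes tested out of 19 listed, 3 rose and 0 fell, with a median of 0.26: Ldhc, the acrosomal gene Spaca1 (115 ± 26.6 to 242 ± 23.3, 1.01, adjusted p = 0.000714) and the transcription factor Sox30 (0.97). Without wild type 4 only 1 of these 3 passed. Ldhc and Sox30 lay above the filter value on only some of the wild-type arrays. Of 11 tested genes of the list of X-linked testis genes 4 rose and 0 fell, with a median of 0.58. That list does not hold all X-linked genes of the testis: Esx1 and Tex11, which stand on other lists, fell. Magea5 rose from 499 ± 64.0 to 1214 ± 202 (1.25, adjusted p = 4.85e-05), Mageb3 from 178 ± 24.9 to 428 ± 63.2 (adjusted p = 7.51e-05) and Mageb16 by 0.58. Magea5 and Magea6 belong to a family of closely similar copies, so their probe sets may read each other's transcripts, and 14 of the 25 listed genes had no probe set with a single symbol.

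**Figure D5:**
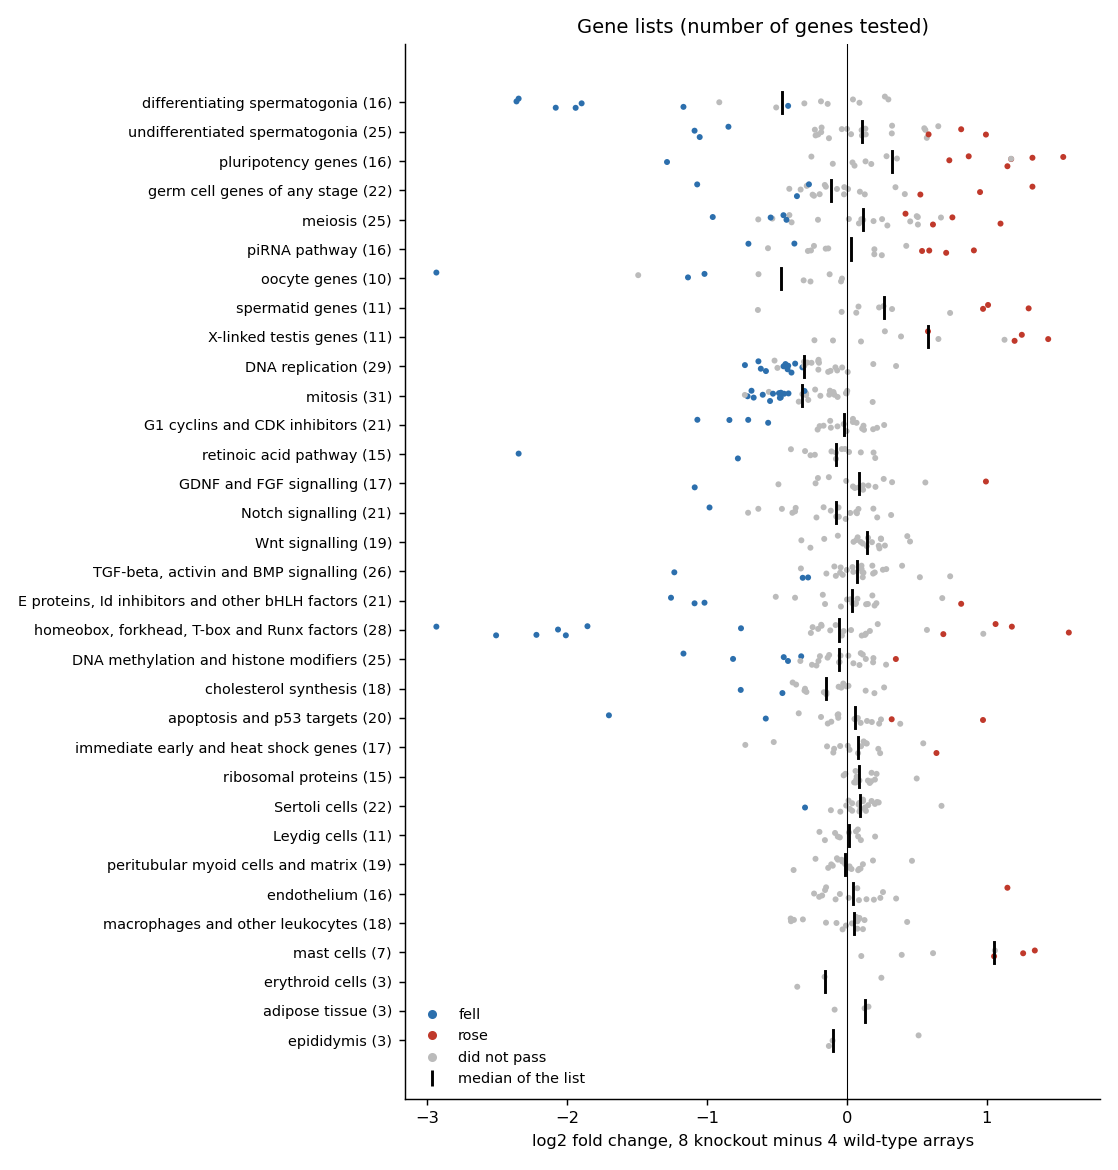
Log2 fold change of every tested gene of 33 lists, with 1 point per gene, blue for genes that fell, red for genes that rose, grey for those that did not pass, and a black tick at the median of the list. Lists of oocyte genes, differentiating spermatogonia, DNA replication and mitosis lie to the left, those of pluripotency, the listed X-linked testis and mast cell genes to the right, and those of Sertoli, Leydig and peritubular cells near 0.

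Several genes of the cell cycle fell, by small amounts, against a background of 3.14% fallen. Of 29 DNA replication genes 11 fell and 0 rose, with a median of -0.30 and 26 negative values. They included the ribonucleotide reductase subunit Rrm2 (2043 ± 163 to 1332 ± 137, -0.61, adjusted p = 0.000888), the origin factors Orc1 (-0.73) and Cdc6 (-0.63), the helicase subunit Mcm2 (-0.58) and the nuclease Fen1 (-0.45). Of 31 mitosis genes 13 fell and 0 rose, with a median of -0.32 and 29 negative values. Aurkb, the kinase of the chromosomal passenger complex, fell from 1074 ± 67.0 to 652 ± 52.8 (-0.71, adjusted p = 0.000200), Plk1 by 0.68, cyclin A2 (Ccna2) by 0.67 and the kinetochore gene Cenpf by 0.48. Mki67 (-0.07) and Cdk1 (-0.01) did not pass. The count of replication genes was 7 without wild type 5 and 17 with both arrays of high 3' to 5' ratio left out, and that of mitosis genes was 8 without wild type 4 or 5. Cenpf did not pass with the mean of its probe sets (-0.25, adjusted p = 0.386).

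Among 21 G1 cyclins and cell cycle inhibitors 4 fell and 0 rose, with a median of -0.02, against 3.14% fallen and 2.36% risen over all genes. Cyclin D1 (Ccnd1) fell from 1552 ± 57.7 to 867 ± 107 (-0.84, adjusted p = 0.000148) and cyclin E2 (Ccne2) from 781 ± 138 to 363.5 ± 47.9 (-1.07, adjusted p = 0.000178), while Ccnd2, of differentiating spermatogonia, stood at 0.04 and Ccne1 at 0.12. The falls of E2f2 and Cdkn2a (-0.70 and -0.56) were both lost without wild type 5 or 6, Sohlh1 knockout 3, or Sohlh2 knockout 3-1, 4 or 5. Of 20 apoptosis genes and p53 targets 2 fell and 2 rose, with a median of 0.06. Ccng1, cyclin G1, fell from 2930.0 ± 285 to 895 ± 115, with knockout values of 740 to 1017 adjusted p = 2.46e-07), and the BH3-only gene Bid fell by 0.58. Of the other probe sets of Ccng1 1 fell (-0.57) and 1 did not pass (0.09). The rises of Pmaip1 (0.97) and Casp9 (0.32) were lost without wild type 4, 5 or 6, Sohlh1 knockout 3 or 5, or Sohlh2 knockout 4, and with the mean of its probe sets Casp9 stood at -0.06.

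Other transcription factors moved in both directions, with 3.14% fallen and 2.36% risen over all genes. Of 28 listed developmental factors, which were homeobox, forkhead, T-box and Runx factors and the zinc finger factor Ovol1, 7 fell and 4 rose, with a median of -0.06. The homeobox gene Esx1, which fell, is counted with differentiating spermatogonia instead. The falls were Tbx1, Lhx8, Dlx1, Runx3, Foxn4, Ovol1 and Lhx6 (-0.76, adjusted p = 0.0339), and the rises were Six4 (138 ± 27.5 to 303 ± 51.8, 1.06), Dlx3 (1.18), Foxc2 (0.69) and Tbx4 (56.9 ± 19.5 in the knockouts). Lhx6 did not pass without any 1 of the wild-type arrays, Sohlh1 knockout 3 or 5, or Sohlh2 knockout 3-1 or 4. Tbx4 lay under the filter value in wild type, and its size ran from 0.59 with the offset at the median to 2.86 with none. Dlx3 also lay under the filter value on every wild-type array, so it was tested only through the knockouts. Dlx1 and Dlx3, of the same family, thus went opposite ways, though Dlx3 did not pass with the mean of its probe sets (0.46, adjusted p = 0.397), and without wild type 4 only 2 of the list rose. Among 21 other helix-loop-helix genes Ascl2 fell from 444 ± 62.7 to 179.5 ± 38.6 (-1.26, adjusted p = 0.000289), next to Neurog3 and Figla, and Id4 rose, with a median of 0.04. Tcf3, which encodes the ubiquitous partners of such factors, stood at 0.06 and did not pass. Of 25 genes of DNA methylation and histone modification 5 fell and 1 rose, with a median of -0.06. The histone methyltransferase genes Suv39h2 (-0.81) and Ehmt2 (-0.45) and the maintenance factor Uhrf1 (-0.42) fell beside Dnmt3b, while Dnmt3a stood at 0.09 and Dnmt3l at 0.01. Leaving out wild type 4, 5 or 6 left 3, 2 or 2 of these falls, and with any 1 wild-type array left out 0 rose.

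The listed signalling pathways held 0 to 3 changed genes each, with 3.14% fallen and 2.36% risen over all genes. Of 26 genes of TGF-beta, activin and BMP signalling 3 fell and 0 rose, with a median of 0.08. The ligand Bmp7 fell from 372 ± 69.1 to 149.8 ± 23.3 (-1.23, adjusted p = 0.000237), while the smaller falls of Tgfbr1 (-0.28) and Smad2 (-0.32) were lost without wild type 3, 4 or 5. Of 15 genes of the retinoic acid pathway 2 fell and 0 rose, Crabp1 and the retinol carrier Rbp4 (824 ± 87.7 to 474 ± 48.1, -0.78), with a median of -0.08. The synthesizing enzyme Aldh1a1 stood at 0.19 with a 95% interval of -0.02 to 0.40, and Aldh1a2 at -0.04. Of 17 genes of GDNF and FGF signalling Gfra1 rose and Etv4 fell (-1.09, adjusted p = 0.0475), with a median of 0.08, and the fall was lost without any 1 of the 4 wild-type arrays or of 6 of the knockout arrays. The ligand Gdnf stood at 0.12.

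In the Notch pathway the ligand Dll3 fell (-0.98, adjusted p = 0.0149) as the only change among 21 genes, with a median of -0.08, and did not pass without wild type 5 or 6. Of 19 Wnt genes 0 changed, and the median was 0.14. Of 18 genes of cholesterol synthesis 2 fell and 0 rose, with a median of -0.15, against 3.14% fallen and 2.36% risen over all genes. Mvd fell from 661 ± 95.2 to 386 ± 59.6 (-0.76), and the fall of Lss (-0.46) was lost without wild type 5 or 6. Among 17 immediate early and heat shock genes, which react to handling of tissue, Egr2 rose (0.64, adjusted p = 0.0323) and 0 fell, with a median of 0.08; that call was lost without any 1 of the 4 wild-type arrays or of 4 of the knockout arrays. Of 15 ribosomal protein genes 0 changed, with a median of 0.09.

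Markers of the cells that surround the germ cells moved little. Of 22 Sertoli cell genes 1 fell and 0 rose, with a median of 0.09, and the summed signal was 156000 to 190100 in wild type and 170700 to 206100 in the knockouts. The fallen gene, Dmrt1 (11847 ± 398 to 9633 ± 454, -0.30, adjusted p = 0.00791), is made by germ cells too. Kitl, the ligand of Kit, stood at 6956 ± 459 and 8179 ± 915 (0.23, 95% interval 0.04 to 0.41, adjusted p = 0.161), Sox9 at -0.05 and Wt1 at 0.01. Of 11 Leydig cell genes, 19 of peritubular myoid cells and matrix and 18 of macrophages and other leukocytes 0 changed, with medians of 0.02, -0.01 and 0.05. Markers of tissue next to the testis did not pass either: 0 of 3 for erythroid cells, 0 of 3 for adipose tissue and 0 of 3 for epididymis (medians -0.16, 0.13 and -0.10). So few genes cannot exclude a change. Fabp4, of adipose tissue, had a 95% interval of -0.94 to 1.25. Pax8, of epididymis, stood at 0.51 (0.16 to 0.87) and passed with both arrays of high 3' to 5' ratio left out (0.64, adjusted p = 0.0142).

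Of 16 endothelial genes the adhesion receptor Selp rose from 39.0 ± 13.8 to 102 ± 21.3 (1.15, adjusted p = 0.00579) and 0 fell, with a median of 0.04. Selp read 53.79, 27.88, 47.53 and 26.64 on the wild-type arrays, of which only 53.79 lay above the filter value of 48.6. Selp was thus tested only through the knockouts, and its size ran from 0.60 to 1.43 over the alternative settings. Some mast cell genes rose, against a background of 2.36% risen. Of 7 tested out of 10 listed 3 rose and 0 fell, with a median of 1.05, and their summed signal was 974 to 1695 in wild type and 1781 to 3208 in the knockouts. The chymase gene Cma1 rose from 135 ± 47.3 to 288 ± 58.2 (1.05, adjusted p = 0.00668), the carboxypeptidase Cpa3 from 175 ± 88.6 to 416 ± 111 (1.26, adjusted p = 0.00911) and Mcpt4 from 109.5 ± 74.6 to 265 ± 61.2 (1.34, adjusted p = 0.0131). Mcpt4 lay above the filter value on only some of the wild-type arrays, so it was tested only through the knockouts. The groups of Cpa3 and Mcpt4 overlapped. On wild type 4 they read 298.8 and 214.4, against lowest knockout values of 270.0 and 193.7. The IgE receptor genes Fcer1a and Ms4a2 were too dim to be tested. When probe sets that can match several transcripts were left out, 1 gene of the list rose. Cma1, Mcpt4 and Tpsab1 had no probe set left in that setting, so the rises of Cma1 and Mcpt4 were absent there and not lost. The part of these cells in other results was not tested. Mast cells also carry Kit, which fell.

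Genes beside the targeted loci were looked at because a knockout can carry linked differences of strain. Of the 10 annotated neighbours on each side of Sohlh1, 7 were tested and 0 changed. Of those of Sohlh2, 7 were tested and Rfxap, a regulator of MHC class II genes, fell from 835 ± 92.7 to 559 ± 55.0 (-0.57, adjusted p = 0.00454), a call that was lost with the mean of its probe sets (-0.22, adjusted p = 0.20). By label as given, Rfxap stood at -0.61 on the Sohlh1 knockout arrays and at -0.53 on the Sohlh2 knockout arrays, relative to wild type on the log2 scale. A link to the Sohlh2 locus was not tested.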

How the data were processed

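Whole-testis RNA was measured on 12 Affymetrix arrays, in 8 knockout and 4 wild-type pools of 3 testes. The deposited values are signal intensities on a linear scale, 1 per probe set and array, which the authors obtained, per the submitters' processing notes, using the software GCOS and the algorithm MAS5; their versions and parameters are not given in the sources. The trimmed mean (2% at either end) was 500.003 on every array, so the values had been scaled. MAS5 signals of dim probe sets are noisy, and the number of arrays limits precision.

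Log2(signal + 14.2), the offset being the 20th percentile, was tested with limma 3.58.1 (trended eBayes, R 4.3.3, statmod 1.5.0) on the 8 knockout against the 4 wild-type arrays. Probe sets above 48.6 (the 40th percentile) on at least 4 arrays entered, p-values were adjusted by Benjamini-Hochberg over all of them, and changed means an adjusted p under 0.05. A gene is represented by its probe set of highest mean. Gene names came from the platform's annotation; 34741 of 34945 were matched to RefSeq by Entrez identifier, and 0 changed. Probe sets with several symbols (932) or none (9160) were left out. The array's genome build is not named, so coordinates are given for promoters alone.

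Named were the targeted genes, the 12 largest falls and rises that passed, did not overlap and were above the filter value on every array of the higher group, and up to 4 members of each of the 33 gene lists with the smallest p; other members were picked with their values in view. The members and lists were chosen with earlier results of these data known. In simulated data of 24906 probe sets, with 50 changed at each size, 38% of 1.5-fold, 80% of 2-fold, 84% of 3-fold and 98% of 4-fold changes were recovered, and 7 unchanged probe sets were called. The simulated noise was normal and independent, and fewer probe sets were changed than were called in the data (1092). These shares are therefore not the power of the real comparison. Replicate numbers did not pair the arrays: deviations of arrays with the same number correlated at -0.0338 to 0.0815. Alternatives covered offset, scaling, filter, probe set choice, model and left-out arrays. Figures were drawn with matplotlib 3.10.9.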

Additional observations from a re-analysis of the deposited data

Results flagged for a closer look

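In 276 groups of 4 arrays or 8 arrays, taken over 136 genes and the control ratios, 21 values lay far from the rest of their group (a gap to the nearest array large relative to the range of the group). Chance marks about 1 in 20 groups.

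On wild type 3, Lhx8 read 216.6 against 271.6 to 279.5 on the other wild-type arrays, Arhgap9 41.16 against 15.13 to 17.98, Aldh1a1 16200 against 18540 to 18840, the Sertoli cell gene Cst12 20270 against 25520 to 26550, and the epididymis gene Lcn8 5.14 against 55.48 to 70.85. The beta-actin 3' to 5' ratio of that array was 1.428, against 1.317 to 1.328. On wild type 5, Runx3 read 277.1 against 208.6 to 218, and the retinol dehydrogenase Rdh11 529.8 against 399.1 to 411.7. Tdrd5, of the piRNA pathway, read 448.5 on wild type 4 and 501.2 to 509.9 on the others.

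On Sohlh2 knockout 1 the beta-actin ratio was 3.559, against 1.303 to 2.096 on the other knockout arrays. There Esx1 read 224.2 against 111.5 to 143.3, Stk31 3094 against 2347 to 2652, Smad2 1677 against 1995 to 2191, Lss 610.1 against 464.5 to 521, and Bid 553.9 against 710.0 to 858. On Sohlh1 knockout 2 Crabp1 read 389.1 against 544.3 to 694.6, E2f2 61.03 against 105 to 143.1, and the lipase gene Lipe 130 against 220.0 to 315.9. On Sohlh2 knockout 3-1 Ldhc read 188.4 against 72.42 to 100.6 and Mageb16 1294 against 1749 to 2244. Mypn read 145.8 on Sohlh2 knockout 5, against 69.76 to 96.08.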

How the results depend on the processing

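The count of 753 changed genes was 1352 with array weights, 301 at an adjusted p under 0.01, 107 when a 2-fold change was also asked for, and 1132 with both arrays of high 3' to 5' ratio left out. Leaving out 1 array at a time gave 363 (without wild type 6) to 922 (without Sohlh2 knockout 1), with 402 and 391 without wild type 4 and 5. With the replicate block it was 603, of which 443 were among the 753, and 671 with Sohlh2 knockout 3-1 counted as number 3; the numbers do not pair the arrays. The counts of genes whose groups do not overlap, 417 higher and 491 lower, were 657 and 762 with those 2 arrays left out and 456 to 763 and 516 to 820 with 1 array left out, highest without wild type 3; fewer arrays make such separation easier. Median centring gave 604 changed genes, of which 47.7% fell against 57.1%, and moved the median of all genes from 0.03 to 0.07. The other counts were 590 (eBayes without trend) to 1092 (3' to 5' ratio as a covariate) and lay within 1.5 times. Of 113 named genes that passed, 72 kept direction and call in all of up to 29 alternatives 40 lost the call with the direction kept in at least 1, and Lpgat1 lost it by turning. Without probe sets that can match several transcripts, Smad2 stood at 0.27, Lss at 0.17 and Lpgat1 at 0.021, and with the mean of probe sets Casp9 stood at -0.059, in each case opposite to the reported sign and on another choice of probe sets. With the replicate block Dppa2 and Selp did not pass (adjusted p = 0.127 and 0.0725). Dim signals limit the lists of oocyte, spermatid, erythroid, adipose and epididymis genes, of which 3 to 11 were bright enough to be tested.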

Other observations

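The 10 changed genes on no list with the smallest p held 9 falls and 1 rise; they were chosen after their values were seen. Mbnl3, a muscleblind-like splicing regulator, fell from 1422 ± 159.9 (SD, n = 4) to 399 ± 34.7 (SD, n = 8) on its brightest probe set (-1.79, adjusted p = 1.00e-07), while its other probe sets stood at 0.09 and 0.50, and with their mean it did not pass (-0.40, adjusted p = 0.102). Hcfc2, a relative of host cell factor, fell from 2262 ± 208 to 948 ± 92.3 (-1.24, adjusted p = 1.29e-06), and with the mean of its probe sets it stood at -0.41 (adjusted p = 0.00659). Morc1, a germ cell gene needed for transposon silencing, was the only rise, from 1399.7 ± 56.5 to 2650.2 ± 185 (0.91, adjusted p = 3.28e-06).

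Lpgat1, an acyltransferase of phospholipid synthesis, fell from 1415 ± 84.8 to 536 ± 92.6 (-1.39, adjusted p = 7.98e-06), but its other probe sets stood at -0.34, -0.03 and 0.02 and did not pass. Ndrg4 fell by 0.95, the folliculin partner Fnip2 by 0.90, the kinesin motor subunit Kif3a by 0.74, the oxidoreductase Ero1a of the endoplasmic reticulum by 0.88, and Pcgf5, a Polycomb ring finger protein, by 0.85. Aifm3 fell from 778 ± 86.5 to 354 ± 39.5 (-1.11, adjusted p = 2.71e-05), a call that was lost without probe sets that can match several transcripts (-1.03, adjusted p = 0.237). Of 678 further tested probe sets of changed genes, 463 had the sign of the representing one, 79 changed the same way and 4 the other way.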
